A study of Mus musculus with 6 samples.

Results

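The 10 genes described here make, store and break down histamine and the eicosanoids, and they are 10 of the 46983 genes in the count tables. They were chosen by name, with earlier results of these data known: Hdc, Hnmt, Slc18a2, Alox5, Alox5ap, Lta4h, Ltc4s, Ptgs1, Ptgs2 and Hpgds. Their messenger RNA was counted in myeloid colonies grown from mouse bone marrow. The 3 KO samples are labelled Psip1-KO, and the series design writes their allele as PsipVav/Vav. The 3 WT samples are labelled wild type, while the design gives PsipFl/Fl, so the controls carry floxed Psip1 alleles. As background, the Vav1 promoter is widely used to drive Cre in blood cells, and Psip1 encodes the chromatin reader LEDGF/p75. All mice were C57BL/6, and their age is given as 8 to 11 weeks in the sample characteristics and as 8 to 10 weeks in the growth protocol. Every sample started from lineage-depleted marrow cells, which were cultured in semisolid methylcellulose. The medium held mSCF, IL-6 and IL-3, and colonies were collected at day 6 to 7. The labels do not state whether each sample of a group came from its own animal, so p-values measure the spread between these samples, which may in part be technical. Each group held a library with Xist reads and libraries with Eif2s3y reads, so its samples did not all come from 1 animal.

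Histamine is made from histidine by the decarboxylase Hdc, loaded into granules by the vesicular transporter Slc18a2 and inactivated by the methyltransferase Hnmt. Eicosanoids start from arachidonic acid. The lipoxygenase Alox5, helped by the membrane protein Alox5ap, makes leukotriene A4, which the hydrolase Lta4h turns into leukotriene B4 and the synthase Ltc4s into leukotriene C4. The cyclooxygenases Ptgs1 and Ptgs2 make prostaglandin H2, which Hpgds turns into prostaglandin D2. Mast cells and basophils are the main stores of histamine among blood cells and make prostaglandin D2 and leukotriene C4, while neutrophils are a main source of leukotriene B4. IL-3 and stem cell factor, which these cultures contained, support mast cells and basophils as well as other myeloid cells.

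Of the 6 libraries 5 were deep, with 7056614 to 15569088 reads on genes. The remaining library, WT replicate 3, held 27909 over 2 sequencing runs. In it 1 read was worth 29.9 normalised CPM, which are reads per 1000000 of the TMM-scaled library size, and 0 reads allow up to 89.6 CPM (3 reads). Levels are therefore given for the 5 deep libraries, and WT replicate 3 is given in reads, of which it had 59 on all 10 genes. Psip1, the check of the labels, stood at 14.8, 17.6 and 16.3 CPM in KO replicates 1, 2 and 3, and at 89.3 and 70.0 CPM in WT replicates 1 and 2. Its log2 fold change was -2.32 (SE 0.32), with an adjusted p = 0.0599 by edgeR, short of the threshold of 0.05. Over the 20 alternatives its log2 fold change was -2.45 to -2.07 and its adjusted p 7.86e-08 to 0.319 (under 0.05 with the second run of WT replicate 3, no low-count filter, the replicate number as a block, Xist or Eif2s3y reads as a term, and DESeq2 without WT replicate 3). The libraries also differed in ways that cut across genotype. KO replicate 1 had 12107 Xist reads and WT replicate 2 had 5910, and neither had Eif2s3y reads. The other 4 libraries had Eif2s3y reads and at most 1 Xist read. The mitochondrial share of reads was 15.7% for KO replicate 2, while the other deep libraries had 1.26% to 1.84%. Of 13 neutrophil markers all 13 were read, and their summed level was 91800, 42390 and 37550 CPM in KO replicates 1, 2 and 3, against 47770 and 103400 CPM in WT replicates 1 and 2. All 12 mast cell markers were read, with sums of 2796, 6459 and 4706 CPM in the KO libraries and 5123 and 3019 CPM in WT replicates 1 and 2. In bulk RNA, fewer cells of a type and less RNA per cell cannot be told apart. Markers of T, B and NK cells summed to at most 0.33 CPM in any deep library, with Cd3e and Cd3g at 0.

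For 8 of the 10 genes the deep WT libraries differed from each other by a larger fold than the mean of KO from the mean of deep WT. The share over all genes tested was not computed, so this count does not set the 10 genes apart. Hnmt was the only member whose KO values all lay below both deep WT values (3.87% of all genes tested), and no member had all KO values above them (4.79% of all genes). For 10 genes, a count of 1 is near these shares. All 10 passed the filter on low counts. None passed the threshold of a Benjamini-Hochberg adjusted p of 0.05 in the quasi-likelihood test of edgeR, and neither did any of the 12292 genes tested (0%). At an unadjusted p under 0.05 the test had 1 of the 10 genes, Hnmt, against 1.45% of all genes (1.24% higher and 0.212% lower in KO). DESeq2 called 1 gene of the whole table (0.0045%) and limma-voom 0, and neither called any of the 10. At an unadjusted p under 0.05, DESeq2 had 0 of the 10 (0.171% of all genes) and limma-voom had Hnmt (0.887%). Without WT replicate 3, Hnmt was again the only member under 0.05, by edgeR (1.07% of all genes) and by DESeq2 (0.999%), and none was called by edgeR (0%) or DESeq2 (0.0704%). By sign, 6 of the 10 were higher and 4 lower in KO, with a median log2 fold change of 0.08 beside 0.01 over all genes tested.

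**Figure D1:**
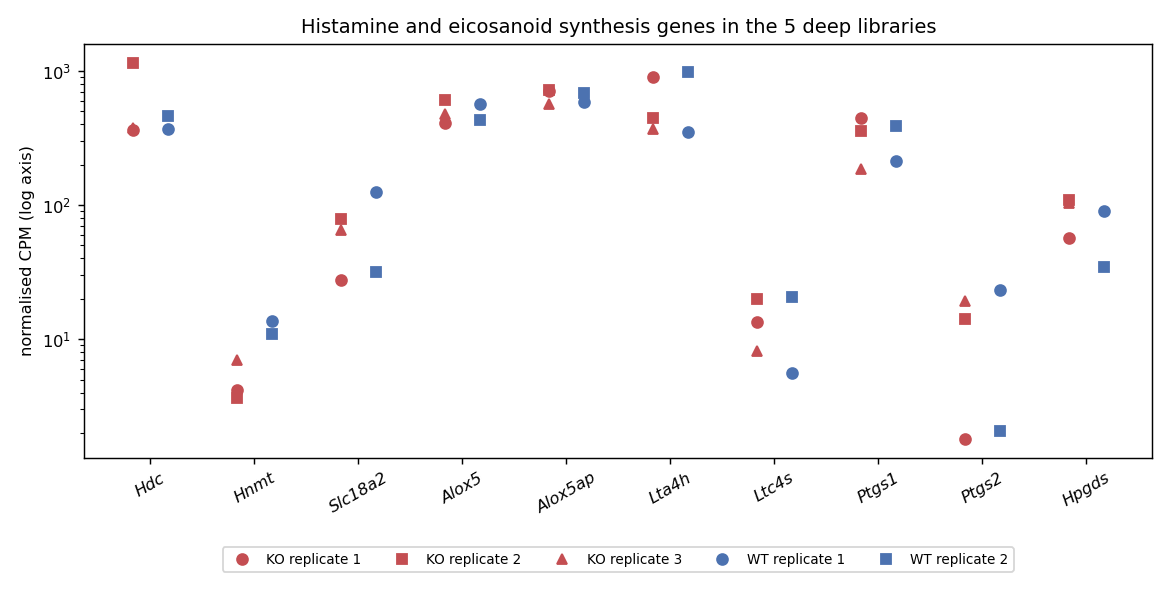
Normalised CPM (log axis) of the 10 genes in the 5 deep libraries, with KO in red left of WT in blue and 1 symbol per replicate; WT replicate 3 is not drawn. Among these genes only Hnmt has all KO points apart from WT: they sit at 3.64 to 6.99 CPM, below both WT points, 10.9 and 13.8 CPM.

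Per kilobase of exon, the levels of the 10 genes fell into tiers. Alox5ap was highest, at 396 to 508 RPKM (normalised CPM divided by kilobases of exon) over the 5 deep libraries, above the range of every other member. Alox5 at 98.9 to 147 RPKM, Lta4h at 57.3 to 159 RPKM, Hdc at 56.6 to 179 RPKM and Ptgs1 at 47.4 to 114 RPKM overlapped with each other, so their order is not fixed by these data. The next 3 genes also overlapped, with Ltc4s at 5.51 to 20.4 RPKM, Slc18a2 at 5.25 to 23.9 RPKM and Hpgds at 5.38 to 16.8 RPKM. Hnmt at 2.06 to 7.79 RPKM and Ptgs2 at 0.395 to 5.10 RPKM had the lowest means, and the range of Hnmt overlapped those of Ptgs2, Ltc4s, Slc18a2 and Hpgds. Among all genes tested, the mean level per kilobase placed Alox5ap at the 99.4th percentile, Hnmt at the 38.5th and Ptgs2 at the 27.3rd. The order depends on the merged exon lengths, which were 1420 bases for Alox5ap, 6102 for Lta4h and 6389 for Hdc. Before division by length, Alox5ap had 562 to 722 CPM. Lta4h in KO replicate 1 and WT replicate 2 (897 and 971 CPM) and Hdc in KO replicate 2 (1146 CPM) were above that range. Together the 10 genes took 0.292%, 0.314% and 0.211% of gene reads in KO replicates 1, 2 and 3, and 0.225% and 0.297% in WT replicates 1 and 2.

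Histamine breakdown was the step with the lowest p. Hnmt (chromosome 2, 24002910 to 24049394, minus strand, GRCm38), the enzyme that methylates histamine inside cells, had 53, 23 and 106 reads in KO replicates 1, 2 and 3, against 190 and 111 reads in WT replicates 1 and 2. In normalised units these were 4.17, 3.64 and 6.99 CPM in KO, a mean of 4.93 ± 1.80 (SD, n = 3), and 13.8 and 10.9 CPM in WT replicates 1 and 2. Every KO library was below both deep WT libraries. The fitted log2 fold change was -1.39 (SE 0.46), or 2.62-fold lower in KO, with an unadjusted p = 0.012 and an adjusted p = 1 by edgeR, where 0.212% of genes were lower at an unadjusted p under 0.05. An exact two-sided permutation test over the 6 samples gave p = 0.1, the smallest value that 3 against 3 can reach. It took the 1 Hnmt read of WT replicate 3 as 29.9 CPM, the highest of the 6 values. This p therefore depends on that 1 read. WT replicate 3 held 1 Hnmt read, whose exact 95% Poisson interval of 0.756 to 166 CPM spans the values of both genotypes. Without it the log2 fold change was -1.31 (SE 0.43, unadjusted p = 0.0195 by edgeR). The unadjusted p was above 0.05 by DESeq2 on all libraries, without KO replicate 1 and without WT replicate 1. Without WT replicate 1 the members with an unadjusted p under 0.05 by edgeR were Hpgds and Ptgs2 instead.

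Single pairs of libraries gave the following ratios of KO to WT for Hnmt. KO replicate 1 had 0.384 times the CPM of WT replicate 2, the other library with Xist reads. KO replicates 2 and 3 had 0.264 and 0.507 times the CPM of WT replicate 1, the deep WT library with Eif2s3y reads. With Xist or Eif2s3y reads as a term beside genotype, the log2 fold change was -1.43 (SE 0.44), with an unadjusted p = 0.00723 and an adjusted p = 1 by edgeR.

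Hdc (chromosome 2, 126593667 to 126619299, minus strand), which makes histamine, stood at 361, 1146 and 376 CPM in KO replicates 1, 2 and 3, against 367 and 459 CPM in WT replicates 1 and 2. WT replicate 3 had 10 reads. KO replicate 2 alone was high, and the other KO libraries lay at or near the lower WT value. The log2 fold change was 0.70 (SE 0.48, adjusted p = 1 by edgeR), and without KO replicate 2 it was -0.06. That library also had the highest summed level of mast cell markers and of the 5 basophil markers (1273, 4189 and 725 CPM in KO replicates 1, 2 and 3, against 1873 and 2778 CPM in WT replicates 1 and 2). Markers of dendritic cells and of megakaryocytes and platelets also had their highest sums there (689 and 1059 CPM). Among the other deep libraries, mast cell sums ran from 2796 to 5123 CPM, while Hdc stood at 361 to 459 CPM. The part of any of these cell types in the Hdc value was not tested.

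Slc18a2 (chromosome 19, 59260896 to 59296012, plus strand), which loads histamine into vesicles, had 27.5, 79.3 and 64.7 CPM in KO replicates 1, 2 and 3, against 125 and 31.9 CPM in WT replicates 1 and 2. The 2 deep WT libraries differed 3.92-fold and the KO libraries up to 2.89-fold, and the groups overlapped. The log2 fold change was -0.38 (SE 0.55, adjusted p = 1 by edgeR), and it was 0.90 without WT replicate 1. An annotated antisense gene, Gm29261, shares 111 exonic bases with Slc18a2, and 3.96% to 13.8% of the stranded reads at Slc18a2 lay on the other strand, which the counts used here leave out. Opposite-strand genes also share exonic bases with Ltc4s (268), Alox5ap (189) and Ptgs1 (148). At these genes at most 3.75% of the stranded reads in any deep library lay on the other strand.

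Relative to the gene that makes histamine, the gene that inactivates it was scarcer in each KO library. Per kilobase, Hnmt stood at 4.17%, 1.15% and 6.71% of Hdc in KO replicates 1, 2 and 3, against 13.6% and 8.55% in WT replicates 1 and 2. The lowest value belongs to KO replicate 2, where Hdc was high. In KO replicates 1 and 3, Hdc (361 and 376 CPM) was near its level in WT replicate 1 (367 CPM). The percentages thus largely repeat the Hnmt values above and are not a separate result. They carry no test, and the share of other gene pairs that separate in this way was not computed.

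**Figure D2:**
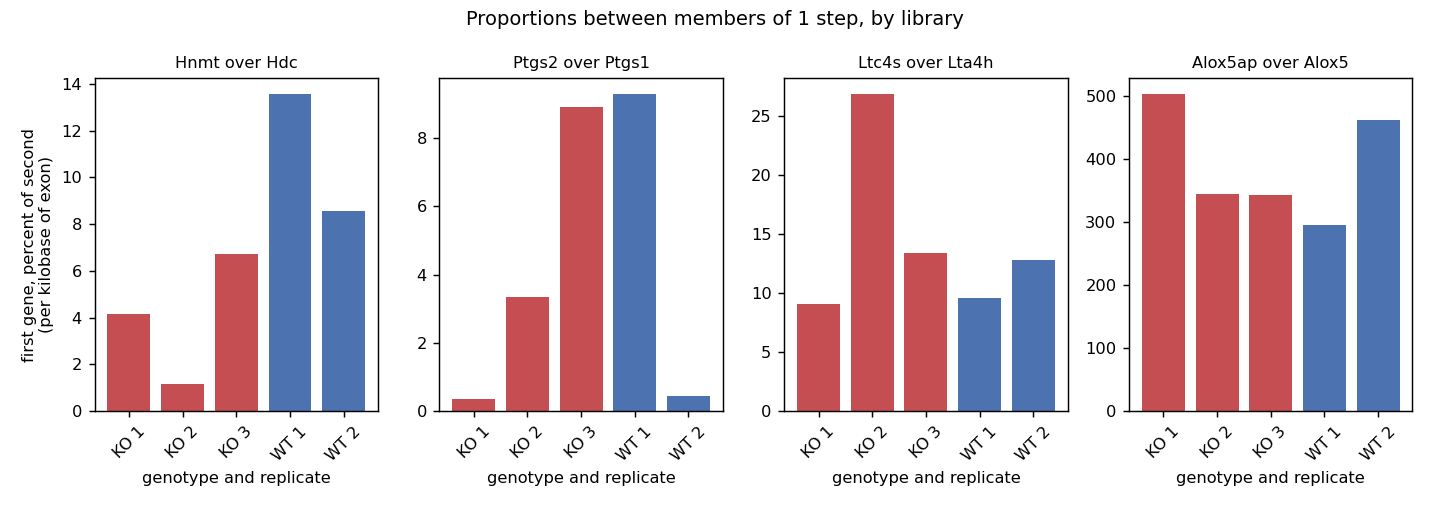
The level of 1 gene as a percent of another, per kilobase of exon, in each deep library (bars start at 0; KO in red, left of WT in blue). Hnmt over Hdc is 1.15% to 6.71% in KO and 8.55% and 13.6% in WT, while Ptgs2 over Ptgs1 is lowest in KO replicate 1 and WT replicate 2.

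The leukotriene branch began with steady levels. Alox5ap (chromosome 5, 149264767 to 149288153, plus strand), which presents arachidonic acid to 5-lipoxygenase, had 707, 722 and 562 CPM in KO replicates 1, 2 and 3, against 581 and 682 CPM in WT replicates 1 and 2. The largest and smallest of these differ 1.28-fold, the narrowest spread of the 10 genes, and the groups overlapped. The log2 fold change was 0.19 (SE 0.34). Alox5 (chromosome 6, 116410077 to 116461178, minus strand), the lipoxygenase itself, had 406, 605 and 473 CPM in KO and 569 and 426 CPM in WT replicates 1 and 2. Its spread over the 5 libraries was 1.49-fold, and the log2 fold change was 0.21 (SE 0.39), or -0.01 without WT replicate 3. Per kilobase, Alox5ap was at 504%, 345% and 344% of Alox5 in KO replicates 1, 2 and 3, against 295% and 463% in WT replicates 1 and 2.

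Further down, the genes of 2 enzymes that use leukotriene A4 varied with the library. Lta4h (chromosome 10, 93453411 to 93484875, plus strand), which makes the neutrophil attractant leukotriene B4, had 897, 447 and 366 CPM in KO replicates 1, 2 and 3, against 350 and 971 CPM in WT replicates 1 and 2. KO replicate 1 and WT replicate 2 were high, the other 3 low, and the groups overlapped. The log2 fold change was -0.08 (SE 0.48), and without WT replicate 2 it was 0.58. The myeloperoxidase gene Mpo, a marker of neutrophil precursors, was high in the same libraries, at 2774, 843 and 559 CPM in KO and 720 and 3036 CPM in WT replicates 1 and 2. The part of neutrophil precursors in the Lta4h value was not tested.

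Ltc4s (chromosome 11, 50236461 to 50238616, minus strand), which joins leukotriene A4 to glutathione, was scarce, with 13.5, 19.9 and 8.12 CPM in KO and 5.59 and 20.7 CPM in WT replicates 1 and 2. The deep WT libraries differed 3.70-fold and enclosed the KO values. Its log2 fold change was 0.01 (SE 0.57). Leaving out WT replicate 1 gave -0.59 and leaving out WT replicate 2 gave 1.13. Per kilobase, Ltc4s was at 9.08%, 26.8% and 13.4% of Lta4h in KO replicates 1, 2 and 3, against 9.62% and 12.8% in WT replicates 1 and 2, so that Lta4h exceeded Ltc4s in every deep library.

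The cyclooxygenase genes were high in different libraries. Ptgs1 (chromosome 2, 36230426 to 36252272, plus strand), the form that many cells make at all times, had 443, 357 and 184 CPM in KO replicates 1, 2 and 3, against 214 and 391 CPM in WT replicates 1 and 2. Ptgs2 (chromosome 1, 150100031 to 150108227, plus strand), the form induced by inflammatory stimuli, had 1.81, 14.1 and 19.3 CPM in KO and 23.4 and 2.06 CPM in WT replicates 1 and 2. Ptgs2 was thus low in KO replicate 1 and WT replicate 2, where Ptgs1 was highest, and the groups overlapped for both genes. The log2 fold changes were 0.15 (SE 0.41) for Ptgs1 and -0.07 (SE 0.94) for Ptgs2.

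Ptgs2 had the widest spread of the 10 genes, 12.9-fold over the deep libraries. The deep WT libraries differed 11.4-fold and the KO libraries up to 10.7-fold, against 0.924 for the mean of KO over the mean of deep WT. Without WT replicate 1 its log2 fold change was 2.58 (unadjusted p = 0.0446 and adjusted p = 0.836 by edgeR). Per kilobase, Ptgs2 made up 0.346%, 3.35% and 8.91% of the Ptgs1 level in KO replicates 1, 2 and 3, against 9.28% and 0.446% in WT replicates 1 and 2. Monocyte and macrophage markers, all 11 of them read, summed to 9035, 5831 and 13810 CPM in KO and 14180 and 6282 CPM in WT replicates 1 and 2. That sum was lowest in KO replicate 2, where Ptgs2 was at 14.1 CPM. Eosinophil markers summed to 303, 787 and 1495 CPM in KO and 1484 and 460.5 CPM in WT replicates 1 and 2. The part of these cell types in the Ptgs2 level was not tested.

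Hpgds (chromosome 6, 65117293 to 65144908, minus strand), the prostaglandin D2 synthase of blood cells, had 57.1, 108 and 103 CPM in KO replicates 1, 2 and 3, against 89.9 and 34.6 CPM in WT replicates 1 and 2. It was lowest in WT replicate 2 and, within KO, in replicate 1, and the groups overlapped. WT replicate 3 had 0 Hpgds and 0 Ptgs2 reads, and a count of 0 there allows up to 89.6 CPM, above every Ptgs2 level. The log2 fold change of Hpgds was 0.63 (SE 0.49, unadjusted p = 0.222 and adjusted p = 1 by edgeR). Leaving out WT replicate 1 gave 1.54 (unadjusted p = 0.00508 and adjusted p = 0.525 by edgeR) and leaving out WT replicate 2 gave 0.27. The carboxypeptidase gene Cpa3, a mast cell marker, was lowest in the same 2 libraries, at 1156, 3453 and 2606 CPM in KO and 2488 and 854 CPM in WT replicates 1 and 2. The part of mast cells in the Hpgds value was not tested.

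**Figure D3:**
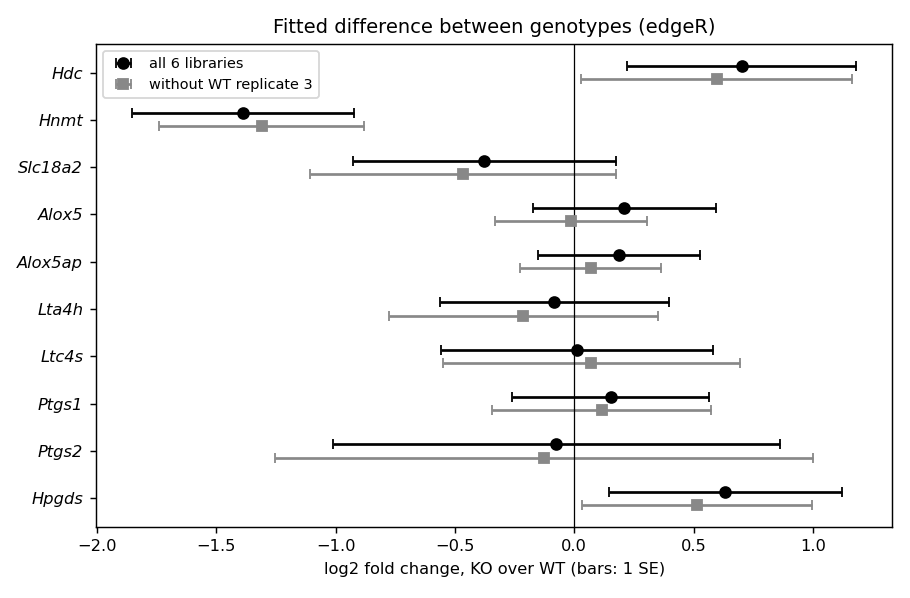
Log2 fold change of KO over WT from edgeR for the 10 genes, with all 6 libraries (black circles) and without WT replicate 3 (grey squares); bars are 1 SE. Hnmt lies lowest at -1.39 and -1.31, and Ptgs2 has the widest bars, at 0.94 and 1.13.

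Across the deep libraries several of the genes were high in the same libraries irrespective of genotype. In 9 of the 10 the sign of the difference between WT replicates 1 and 2 was that between KO replicates 3 and 1. The share was 84.0% over all genes tested, so that the count is near that of all genes. KO replicate 1 was within 1.5-fold of WT replicate 2 for 7 of the 10 (85.3% of all genes), and KO replicate 3 within 1.5-fold of WT replicate 1 for 8 of the 10 (90.0% of all genes). KO replicate 2 held the highest deep value for 4 of the 10, against 26.8% of all genes.

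**Figure D4:**
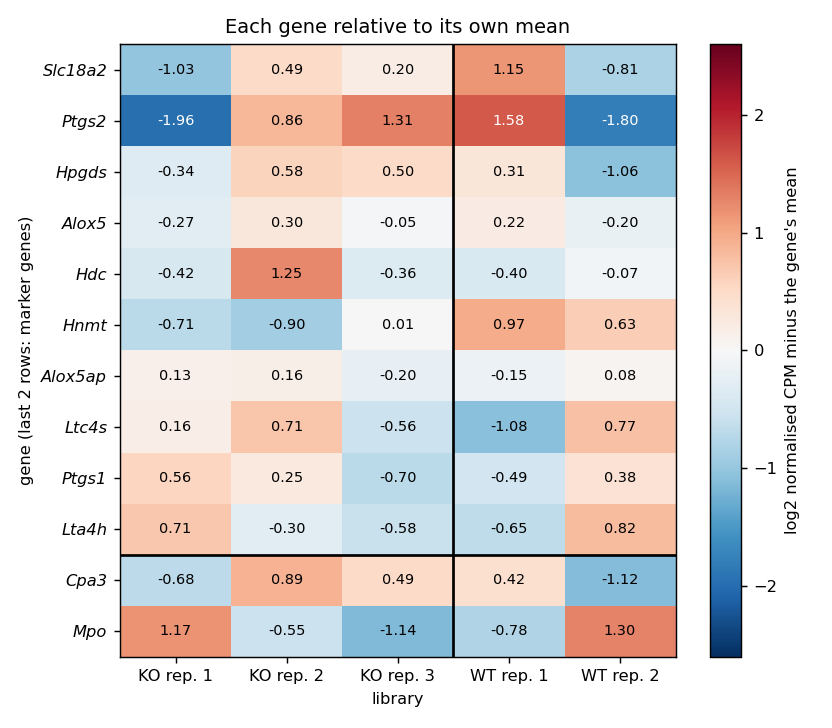
Log2 normalised CPM of each gene minus its own mean over the 5 deep libraries, with KO columns left of WT columns and the marker genes Cpa3 and Mpo in the last 2 rows. Slc18a2, Ptgs2 and Hpgds are below their means in KO replicate 1 and WT replicate 2, where Ptgs1, Lta4h and Mpo are above theirs.

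The bases before the start sites of 4 genes are shown because the genes were high in different libraries: Slc18a2 and Ptgs2 were lowest in KO replicate 1 and WT replicate 2, where Ptgs1 and Lta4h were highest. Each line gives the 250 bases before the RefSeq start on GRCm38.p6. RefSeq windows were matched for 9 of the 10 genes. Capitals mark matches on either strand to the GATA box (AGATAA or AGATAG or TGATAA or TGATAG), which GATA factors bind, or to an ETS-type site (AGGAAG).
Slc18a2, chr19:59260628-59260877, plus strand: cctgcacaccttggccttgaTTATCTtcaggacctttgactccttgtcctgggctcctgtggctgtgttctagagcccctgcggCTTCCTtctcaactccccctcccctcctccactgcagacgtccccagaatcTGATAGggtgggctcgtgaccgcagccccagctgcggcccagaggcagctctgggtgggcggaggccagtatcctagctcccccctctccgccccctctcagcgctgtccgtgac
Ptgs2, chr1:150099781-150100030, plus strand: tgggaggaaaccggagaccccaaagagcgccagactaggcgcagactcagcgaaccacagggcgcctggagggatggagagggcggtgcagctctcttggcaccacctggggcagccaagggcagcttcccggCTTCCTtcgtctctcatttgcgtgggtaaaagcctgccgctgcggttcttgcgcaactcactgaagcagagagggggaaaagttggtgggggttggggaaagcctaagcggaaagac
Ptgs1, chr2:36230176-36230425, plus strand: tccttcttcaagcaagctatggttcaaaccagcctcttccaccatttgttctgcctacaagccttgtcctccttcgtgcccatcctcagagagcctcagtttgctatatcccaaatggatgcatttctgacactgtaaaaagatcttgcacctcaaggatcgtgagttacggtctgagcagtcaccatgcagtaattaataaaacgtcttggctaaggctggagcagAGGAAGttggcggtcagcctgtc
Lta4h, chr10:93453146-93453395, plus strand: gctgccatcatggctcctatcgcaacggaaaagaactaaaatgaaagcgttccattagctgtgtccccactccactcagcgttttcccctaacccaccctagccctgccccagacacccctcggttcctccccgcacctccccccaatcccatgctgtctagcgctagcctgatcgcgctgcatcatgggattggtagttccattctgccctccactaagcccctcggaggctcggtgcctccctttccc

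Slc18a2 had 2 GATA boxes, with their first bases 230 and 115 bases before the start, and 1 ETS-type match. Ptgs2 and Ptgs1 had 1 ETS-type match each and no GATA box, and Lta4h had neither. Of the 9 genes, 3 held a GATA box in this window (Slc18a2, Hdc and Alox5), against 26.5% of 32841 windows of the same length. An ETS-type match was present in 7 of the 9, against 29.5% of all windows. A match of 6 letters is a description of the sequence and not a bound site.

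By the size of the difference in pattern over the 5 deep libraries, Hdc was closest to Adora3, Oaf and Avil among 9059 genes. The root mean square difference of their centred log2 CPM from that of Hdc was 0.0936, 0.0962 and 0.105. Adora3, an adenosine receptor gene of mast cells, had 29.8, 95.4 and 33.3 CPM in KO replicates 1, 2 and 3, against 34.5 and 35.6 CPM in WT replicates 1 and 2. Hnmt had no neighbour as close, with Snrnp35 and Gpr65 at 0.308 and 0.310. With only 23 to 190 Hnmt reads per deep library, counting error enters its distances more than those of Hdc or Alox5. Alox5 was closest to Ktn1, Hnrnpa1 and Ggcx at 0.035, 0.0369 and 0.0414, and Hpgds to Slc26a11, Ahnak and Pfkfb2 at 0.0483, 0.0621 and 0.0682. These distances carry no test and 5 libraries set them.

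The wider pathways held 64 other genes in 5 lists, also chosen with earlier results of these data known. Of these genes 40 had enough reads to be tested and 0 passed the threshold in either direction. None had an unadjusted p under 0.05 by edgeR. By sign 25 were higher and 15 lower in KO, with a median log2 fold change of 0.15, beside 0.01 for all genes tested. All KO libraries were below both deep WT libraries for 2 of the 40, Maob and Ptgr2, and above them for 1, Ltb4r2 (3.87% and 4.79% of all genes). Ptgr2, a prostaglandin reductase gene, was picked out after its values were seen.

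Of 9 other histamine genes 5 passed the filter on low counts. Aoc1, which encodes diamine oxidase, the extracellular route of histamine breakdown, had 0 reads in every deep library, as did the receptor gene Hrh3. Maob, a monoamine oxidase that acts downstream of Hnmt on methylhistamine, had 15.8, 22.8 and 22.5 CPM in KO replicates 1, 2 and 3, against 44.2 and 23.01 CPM in WT replicates 1 and 2 (log2 fold change -0.72, SE 0.38). Its highest KO value lies just under its lower WT value. Slc22a3, an organic cation transporter, was at -0.24 (SE 0.46), and the histamine receptor gene Hrh2 at 0.30 (SE 0.45). Of 5 tested members of this list 2 were higher and 3 lower, with a median of -0.24.

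Arachidonic acid supply gave a median log2 fold change of 0.10 over 8 tested genes, 6 higher and 2 lower. Lpcat3, which puts arachidonic acid into phospholipids, was at -0.12 (SE 0.34), Acsl4, which activates it, at -0.06 (SE 0.48), and the lipase gene Mgll at 0.37 (SE 0.35). The phospholipase gene Pla2g6 was at 0.86 (SE 0.52), with 22.7, 48.9 and 14.7 CPM in KO and 12.5 and 20.0 CPM in WT replicates 1 and 2, which overlap. The other lipoxygenases had 3 tested genes, all with a positive sign and overlapping groups: Alox15 at 0.69 (SE 0.54), Alox12 at 0.46 (SE 0.74) and Alox8 at 0.42 (SE 0.55).

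Among other leukotriene genes, 6 of 10 tested were higher and 4 lower, with a median of 0.24. Cotl1, whose protein binds 5-lipoxygenase, had the most reads of the list, at 617 to 876 CPM in KO and 870 and 905 CPM in WT replicates 1 and 2 (log2 fold change -0.21, SE 0.34). Mgst2, a glutathione transferase, had 199, 88.0 and 49.5 CPM in KO and 48.6 and 219 CPM in WT replicates 1 and 2, the library pattern of Lta4h, with a log2 fold change of -0.42 (SE 0.64). The exporter gene Abcc1 was at 0.30 (SE 0.39) and the glutamyl transferase gene Ggt5 at 0.70 (SE 0.47). Ltb4r2, a leukotriene B4 receptor gene, had 21, 16 and 22 reads in KO and 16 and 3 in WT replicates 1 and 2 (log2 fold change 1.30, SE 0.66).

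Other prostaglandin genes had a median of 0.02 over 14 tested, 8 higher and 6 lower. The reductase gene Ptgr1 was at -0.27 (SE 0.37), the prostacyclin receptor gene Ptgir at 0.18 (SE 0.33) and the thromboxane synthase gene Tbxas1 at 0.01 (SE 0.36). Cbr1, a carbonyl reductase gene, was at 0.57 (SE 0.45) and the prostaglandin E2 receptor gene Ptger1 at 0.74 (SE 0.59).

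**Figure D5:**
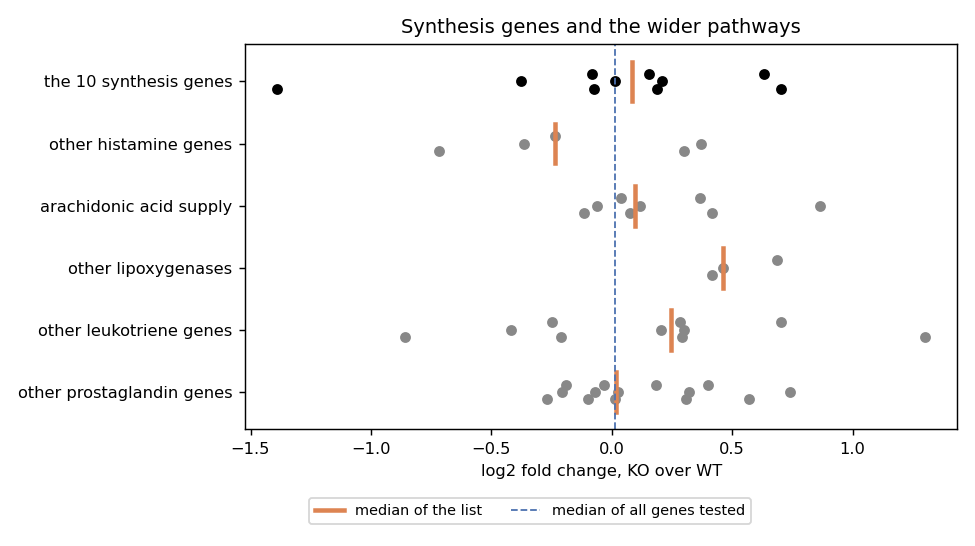
Log2 fold change of KO over WT (edgeR, all 6 libraries) for the 10 synthesis genes in black and for the tested genes of the wider pathways in grey; orange bars are list medians and the dashed line is the median of all genes tested, 0.01. The list medians lie between -0.24 and 0.46, and Hnmt is the lowest point of all at -1.39.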

How the data were processed

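Libraries were prepared from polyadenylated RNA with a strand-specific kit (TruSeq Stranded mRNA), per the labels' protocols. The deposited files hold raw read counts per gene, 1 file per run and 7 files in all, in the layout of STAR's gene counter. STAR 2.5.1b, GRCm38 and DESeq2 (with no role given) are named per the submitters' processing notes, and the annotation release behind the counts is unknown. Each count is of uniquely mapped reads on 1 gene. Reads of column 4 (reverse-strand counting) were taken, which held 95.6% to 97.5% of stranded gene reads. Rows that name no gene (25.6% to 47.8% of reads) were left out. The 2 runs of WT replicate 3 were summed as 1 replicate. Identifiers were matched without version to GENCODE M21 for 46488 of 46983 genes, and RPKM use its merged exon lengths.

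The main test was the two-sided quasi-likelihood test of edgeR 4.0.16 (robust glmQLFit, then glmQLFTest) with genotype as the only term, after a filterByExpr filter and TMM normalisation. Its p-values were adjusted by Benjamini-Hochberg over 12292 genes. SE is the log2 fold change over the root of F. DESeq2 1.42.0 and limma 3.58.1 were among 20 alternatives. Intervals cover counting error only. Members and lists were chosen with earlier results of these data known. Named from each wider list were genes past the threshold, of which there were 0, the 3 genes of highest mean CPM and the 2 of lowest p. Patterns were compared for all 10 members, and the rule named neighbours of Hdc, Hnmt, Alox5 and Hpgds, among genes with a mean of at least 10 CPM, as log2 CPM with a prior count of 2 reads, and 1 of the genes closest to Hnmt is not reported here.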

Additional observations from a re-analysis of the deposited data

How the results depend on the processing

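No member and no wider pathway gene was called under any of 20 alternatives. Of 200 recomputed log2 fold changes of the members 180 kept their sign, and Hnmt (-1.71 to -1.22, adjusted p 0.882 to 1), Hpgds and Alox5ap kept it throughout. The threshold of 0.1 reused the main fit, and leaving out robust estimation gave the same log2 fold changes. The signs kept in these settings say nothing about stability. Ltc4s turned to -0.042 with scaling by library size only, -0.018 with DESeq2 and -0.045 with unstranded counts. Ptgs2 turned to 0.053 with DESeq2 and 0.081 with limma-voom, Alox5 to -0.030 with DESeq2 and WT replicate 3 left out, and Lta4h to 0.075 with the second run of WT replicate 3 and to 0.0057 with Xist or Eif2s3y reads as a term, a setting chosen after seeing the data. Leaving out 1 library at a time gave ranges of -0.059 to 1.00 for Hdc, -0.87 to 0.90 for Slc18a2, -0.59 to 1.13 for Ltc4s, -0.013 to 0.56 for Alox5, -0.12 to 0.52 for Ptgs1, -0.85 to 2.58 for Ptgs2 and -0.57 to 0.58 for Lta4h. Over the whole table the count of genes called was 0 in the main test, 0 to 5 with 1 library left out (5 without WT replicate 1 or KO replicate 3, 3 without WT replicate 2 and 2 without KO replicate 1), 2 with scaling by library size only, 9 without a low-count filter, 1 with DESeq2, 12 with DESeq2 and WT replicate 3 left out, 13 with the second run of WT replicate 3, 4 at a threshold of 0.1 and 4 with Xist or Eif2s3y reads as a term. The cause of these moves was not tested. With the replicate number as a block 13 genes were called, and Hnmt was at -1.71. Deviations of same-numbered samples from their group means correlated at -0.29, -0.03 and -0.15 over genes. Differently numbered pairs ran from -0.19 (KO replicate 2 with WT replicate 1) to 0.40 (KO replicate 3 with WT replicate 1). With 3 samples per group, and WT replicate 3 so shallow, these values cannot decide whether the numbers pair the samples. WT replicate 3 limits every comparison, since 0 reads there allow up to 110 CPM.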

Other observations

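Ptgs2 had neighbours in pattern that are themselves known as rapidly induced genes of activated myeloid cells, picked out after their values were seen. Cxcl2, a chemokine gene, had 8.89, 70.2 and 111 CPM in KO replicates 1, 2 and 3, against 145 and 9.89 CPM in WT replicates 1 and 2, at a root mean square distance of 0.186 from Ptgs2. Il1a, the gene of the alpha form of interleukin 1, and Fosb, an early response transcription factor gene, followed at 0.269 and 0.384. Slc18a2 was closest to Il1rl1, the IL-33 receptor gene of mast cells, at 0.204. Lta4h was closest to Thra, Nxn and Ppm1m, at 0.0374, 0.0675 and 0.094.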
